A study of Mus musculus with 7 samples.

Results

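The macrophage and leukocyte genes of the neonatal islet are described here across 7 pools of islet RNA. They are 34 genes fixed by symbol, chosen as markers of islet macrophages and other leukocytes, and all 34 were found among the 49315 mouse genes of the count files, each under 1 gene ID. Islets came from mice aged 7 days, and ribosome-depleted total RNA was sequenced. The βNrf2KO group (4 pools, numbered 1, 2, 3 and 4) had Nrf2 deleted in β-cells. Nrf2 is a transcription factor that switches on antioxidant genes. The control group (3 pools, numbered 1, 2 and 4) was Nrf2lox/lox, with the floxed gene and no deletion by label. The labels name no promoter for the Cre recombinase, and each pool held RNA of 5 animals, so errors and p-values measure the spread between pools and not between mice.

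Macrophages are the main resident leukocytes of the islet. They depend on signals through the receptor of colony-stimulating factor 1, take up debris and secretory granules, and present peptides on MHC class II molecules. In the newborn pancreas they lie in the islets and in the stroma around them, where they are known to support growth of the endocrine tissue. In RNA of whole islets, fewer cells of a type and less RNA per cell cannot be told apart.

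Total counts ran from 18187382 to 20847474 in βNrf2KO pools and from 21603654 to 25373105 in control pools. The mitochondrial genome took 10.02% to 27.7% of counts in βNrf2KO pools and 14.6% to 51.8% in control pools. Without those genes, 13142310 to 18757838 counts remained in βNrf2KO pools, against 12314916, 11688553 and 21664045 in control pools 1, 2 and 4, so control pools 1 and 2 were the shallowest for all other genes. Levels are therefore given as CPM, the usual counts scaled to a library total, with TMM factors that adjust each library for such a share. Counts of the Cre recombinase were 24, 23, 46 and 73 in βNrf2KO pools 1, 2, 3 and 4, and 0 in each control pool, as the genotype labels imply. Nfe2l2, the gene of Nrf2, had 66.9, 57.8, 67.4 and 58.7 CPM in βNrf2KO pools 1, 2, 3 and 4, against 86.2, 43.2 and 48.5 CPM in control pools 1, 2 and 4, and the groups overlapped. Counts over the whole gene do not check a deletion of part of it in 1 cell type. The 8 endocrine genes listed, insulin and glucagon among them, summed to 40991 to 64884 CPM in βNrf2KO pools and 22366 to 62252 CPM in control pools, as the tissue label implies, with control pools 1 and 2 lowest. Fibroblast and pericyte markers summed to 950 to 1560 CPM in βNrf2KO pools and to 2241, 2607 and 972 CPM in control pools 1, 2 and 4, and acinar markers to 50.8 to 212 CPM in βNrf2KO pools and 385, 142 and 59.4 CPM in control pools 1, 2 and 4.

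No member passed the threshold between genotypes, and the pools of the groups overlapped for every one of the 34 members. The 34 genes together summed to 155, 223, 155 and 206 CPM in βNrf2KO pools 1, 2, 3 and 4, against 285, 198 and 165 CPM in control pools 1, 2 and 4. The means were 184.7 ± 35.3 CPM (SD, n = 4) and 216 ± 61.9 CPM (SD, n = 3), a ratio of 0.856 for βNrf2KO to control, smaller than the spread between pools. Control pool 1 stood highest of the 7, and βNrf2KO pools 1 and 3 lay lowest, near control pool 4.

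Of the 34 members, 31 had enough counts to be tested, and 0 of the 31 had an adjusted p under 0.05 (edgeR quasi-likelihood test, Benjamini-Hochberg over 19893 genes, smallest adjusted p among members 0.571). The share called among all tested genes was 0%. A fit that also took the pool number as a block called 0.0704% of all genes and 0 members. At an unadjusted p under 0.05 there was 1 member, Lyve1, where 8.46% of all tested genes lay, and DESeq2 likewise gave 0 members adjusted and 1 unadjusted. No pair of groups failed to overlap among the members, against 7% of all tested genes. Log2 fold changes of βNrf2KO over control were below 0 for 27 of 31 members and above 0 for 4, with a median of -0.32, whereas 50.6% of all tested genes lay below 0 with a median of -0.01. Without control pool 1 the count below 0 was 15 of 31 and the median 0.02, beside 49.5% of all genes.

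**Figure D1:**
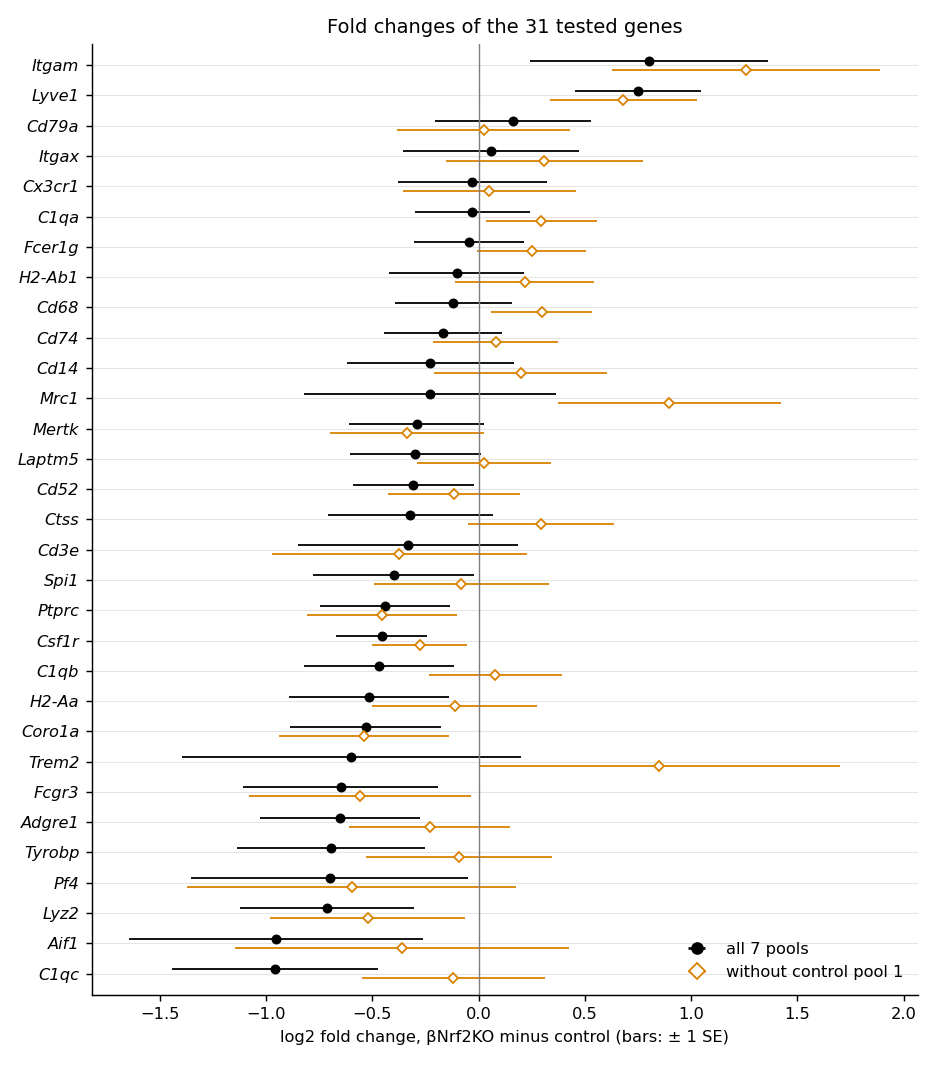
Log2 fold change of each of the 31 tested genes (x axis, βNrf2KO minus control, bars ± 1 SE derived from the edgeR test). Filled circles are fits with all 7 pools and open diamonds fits without control pool 1. With all pools 27 of 31 genes lie left of 0, and without control pool 1 the number is 15.

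The excess of values below 0 rested on control pool 1. Of the 31 tested members, 20 had their highest level of all 7 pools there, compared with 14.3% of all tested genes. The median member stood 0.63 log2 units above its own mean in control pool 1, and the medians were 0.14 and -0.18 in control pools 2 and 4. In βNrf2KO pools 1, 2, 3 and 4 the medians were -0.32, 0.25, -0.45 and 0.07, and βNrf2KO pool 3 held the lowest level for 13 members and βNrf2KO pool 1 for 9. Control pool 1 was also the pool with the highest sum of acinar markers, and their part in the macrophage values was not tested.

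**Figure D2:**
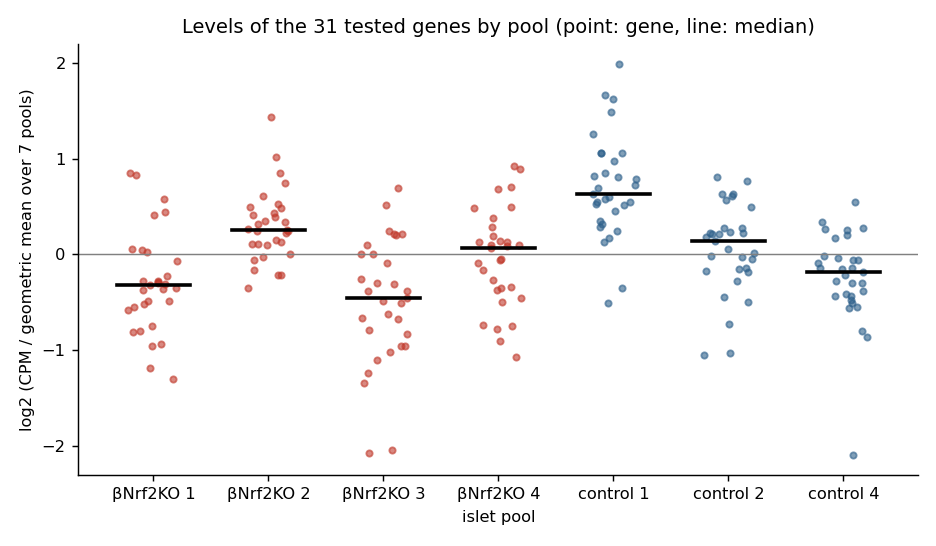
Level of each of the 31 tested genes in each pool (y axis, log2 of CPM over the geometric mean of that gene across 7 pools; horizontal spread of points is for display), with the median of each pool as a black line. Control pool 1 has the highest median (0.63) and βNrf2KO pool 3 the lowest (-0.45), and medians of the other 5 pools lie between -0.32 and 0.25.

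Levels of different members can be compared only per length of exon, as mean CPM per kilobase over the 7 pools. On that scale Cd74 was highest at 13.5, followed by Fcer1g at 9.59, Cd68 at 7.98 and C1qa at 7.73. Csf1r stood at 2.26, Spi1 at 1.80, Adgre1 at 1.00 and Ptprc at 0.82, and the lowest members were Folr2 at 0.11, Cd163 at 0.05 and Lyz1 at 0.01. Counts per pool were below 25 in at least 1 pool for 13 of the 34 members, so their estimates carry more counting error than those of the abundant ones.

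**Figure D3:**
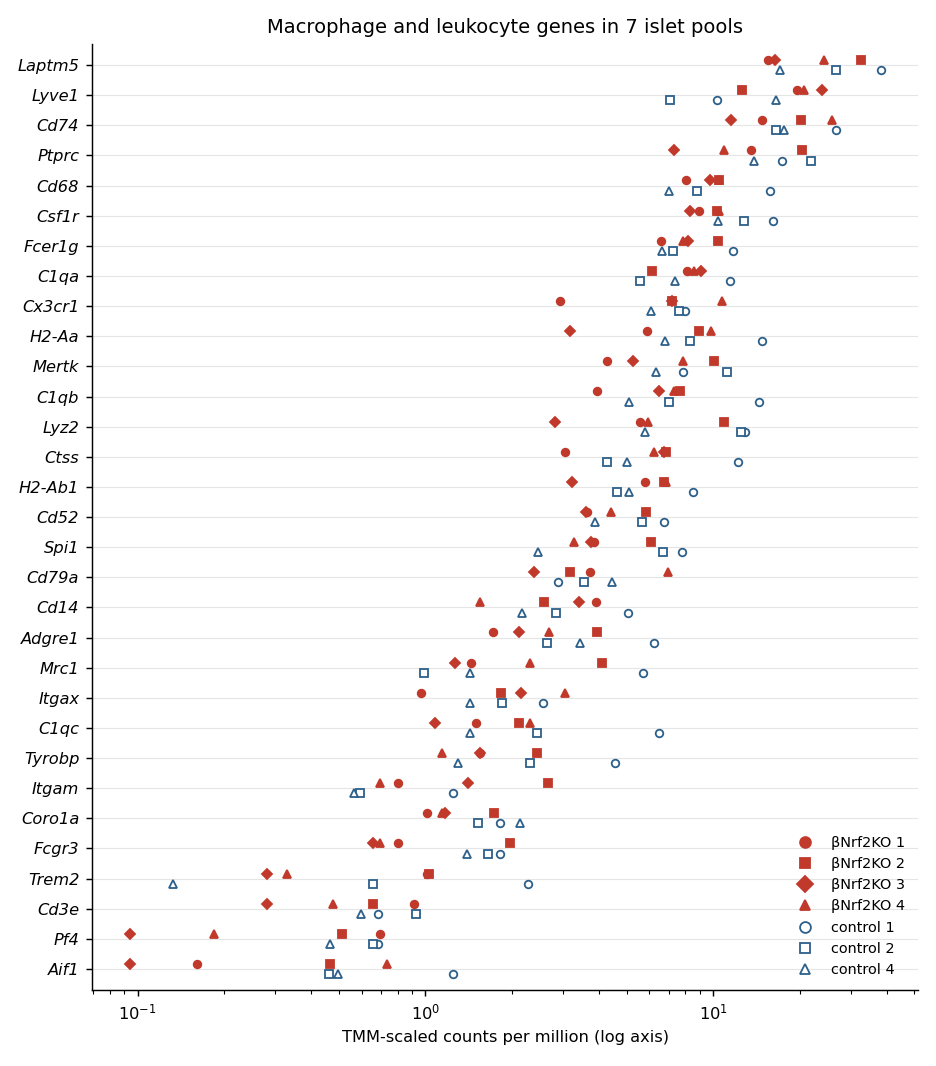
TMM-scaled CPM (x axis, log scale) of each of the 31 tested genes in every pool, ordered by βNrf2KO mean. Filled red marks are βNrf2KO pools and open blue marks control pools. No gene separates the groups, and the control pool 1 circle is the rightmost mark for 20 genes.

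Receptors that define macrophages were read first. Csf1r, the receptor of colony-stimulating factor 1 (ENSMUSG00000024621, chromosome 18, 61105572 to 61132149, plus strand, GRCm38), had 8.94, 10.3, 8.30 and 10.5 CPM in βNrf2KO pools 1, 2, 3 and 4, against 16.1, 12.7 and 10.4 CPM in control pools 1, 2 and 4. The highest βNrf2KO pool and the lowest control pool nearly met, so the groups overlapped by 1 pool on each side. The means were 9.51 ± 1.07 CPM (SD, n = 4) and 13.1 ± 2.90 CPM (SD, n = 3). Its log2 fold change of -0.46 ± 0.21 (SE) did not pass (edgeR, adjusted p = 0.571) and ranged from -0.60 to -0.28 when each pool was left out. Exons of Csf1r overlap those of Hmgxb3 on the opposite strand over 871 bases, so reads there cannot be assigned without strand.

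Adgre1, which encodes the macrophage antigen F4/80 (ENSMUSG00000004730, chromosome 17, 57358686 to 57483529), had 1.71, 3.93, 2.11 and 2.68 CPM in βNrf2KO pools 1, 2, 3 and 4, against 6.25, 2.64 and 3.46 CPM in control pools 1, 2 and 4. Control pool 1 lay above all others and the remaining pools mixed. The log2 fold change was -0.65 ± 0.38 (edgeR, adjusted p = 0.590), and it was -0.23 without control pool 1. A further 6 receptors of phagocytes were tested with log2 fold changes between -0.65 and -0.03. They were Fcgr3, a low-affinity receptor for IgG (-0.65 ± 0.46), the lipid receptor Trem2 (-0.60 ± 0.80), Mertk, which binds apoptotic cells (-0.29 ± 0.32), the mannose receptor Mrc1 (-0.23 ± 0.59), Cd14, a co-receptor for lipopolysaccharide (-0.23 ± 0.39), and the fractalkine receptor Cx3cr1 (-0.03 ± 0.35), with adjusted p from 0.639 to 0.982 by edgeR. Without control pool 1 the estimates of 4 of these turned above 0, to 0.90 for Mrc1, 0.85 for Trem2, 0.20 for Cd14 and 0.050 for Cx3cr1.

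Lyve1 went the other way. It encodes a receptor for hyaluronan that is carried by a subset of tissue macrophages and by lymphatic endothelium (ENSMUSG00000030787, chromosome 7, 110850607 to 110863239, minus strand). It had 19.5, 12.6, 23.8 and 20.6 CPM in βNrf2KO pools 1, 2, 3 and 4, against 10.3, 7.06 and 16.6 CPM in control pools 1, 2 and 4. Of the 4 βNrf2KO pools, 3 lay above every control pool, while βNrf2KO pool 2 lay below control pool 4. The means were 19.1 ± 4.71 CPM (SD, n = 4) and 11.3 ± 4.84 CPM (SD, n = 3), with a log2 fold change of 0.75 ± 0.30 (edgeR, unadjusted p = 0.027, adjusted p = 0.571). It stayed above 0 when each pool was left out (0.50 to 1.14). With the block it was 0.68 ± 0.20 and did not pass (edgeR, adjusted p = 0.269).

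Mrc1 and Pf4, tested members also found in such macrophages, differed by -0.23 ± 0.59 and -0.70 ± 0.65. Without control pool 1 they were 0.90 and -0.60. Cd163 and Folr2, other genes of the same macrophage subset, had few counts. Cd163, the scavenger receptor for haemoglobin (ENSMUSG00000008845), had 8, 8, 2 and 6 counts in βNrf2KO pools 1, 2, 3 and 4, against 5, 6 and 0 in control pools 1, 2 and 4. Folr2, folate receptor β (ENSMUSG00000032725), had 0, 4, 3 and 6 counts in βNrf2KO pools 1, 2, 3 and 4, against 4 counts in each control pool. Neither had enough counts to be tested, and 63.1% of the exon length of Folr2 overlaps Gm10602 on the opposite strand, so its level is uncertain. Of 7 markers of blood vessel endothelium, 6 had log2 fold changes above 0 with a median of 0.24 and none passed. They summed to 1155, 1288, 1512 and 1337 CPM in βNrf2KO pools 1, 2, 3 and 4, against 1262, 1074 and 1085 CPM in control pools 1, 2 and 4. βNrf2KO pool 3 was highest for this sum and for Lyve1. The lowest of the βNrf2KO pools was pool 1 for the sum and pool 2 for Lyve1. A list of 6 lymphatic genes, chosen after the Lyve1 values were seen, summed to 194 to 260 CPM in βNrf2KO pools and 197 to 265 CPM in control pools, with 2 of 5 tested genes above 0. Ccl21a of that list was at 0 counts in all 7 pools. The part of either cell type in the Lyve1 values was not tested.

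The C1q chains are made mainly by macrophages and start the classical complement pathway. Their genes lie side by side on chromosome 4. C1qa (ENSMUSG00000036887, 136895917 to 136898803) had 8.13, 6.13, 9.05 and 8.56 CPM in βNrf2KO pools 1, 2, 3 and 4, against 11.5, 5.54 and 7.38 CPM in control pools 1, 2 and 4. C1qc (ENSMUSG00000036896, 136889804 to 136893065) had 1.5, 2.11, 1.08 and 2.32 CPM in βNrf2KO pools and 6.48, 2.44 and 1.43 CPM in control pools. C1qb (ENSMUSG00000036905, 136880129 to 136886187) had 3.96, 7.67, 6.47 and 7.31 CPM in βNrf2KO pools, against 14.4, 7.00 and 5.12 CPM in control pools. All 3 chains were highest in control pool 1. The other C1qa values mixed between groups, and for C1qc control pool 1 stood alone above the rest. Log2 fold changes were -0.03 ± 0.27 for C1qa, -0.47 ± 0.35 for C1qb and -0.96 ± 0.48 for C1qc (edgeR, adjusted p = 0.974, 0.652 and 0.571). Without control pool 1 they were 0.30, 0.079 and -0.12, so the lowest estimate among all members rested on that pool. The chains summed to 13.6 to 18.2 CPM in βNrf2KO pools, and to 32.4 CPM in control pool 1 against 15.0 and 13.9 CPM in control pools 2 and 4.

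Promoters of C1qb and C1qc are shown because these neighbours were highest in control pool 1, as was C1qa, for which no promoter was listed. Each runs from 250 bases before to 50 bases after a transcript start (RefSeq, GRCm38.p6, chr4:136886151-136886450 and chr4:136892865-136893164, both minus strand), and capitals mark GAGGAA, a core of sites bound by PU.1, the factor encoded by Spi1, or its reverse complement.
C1qb promoter: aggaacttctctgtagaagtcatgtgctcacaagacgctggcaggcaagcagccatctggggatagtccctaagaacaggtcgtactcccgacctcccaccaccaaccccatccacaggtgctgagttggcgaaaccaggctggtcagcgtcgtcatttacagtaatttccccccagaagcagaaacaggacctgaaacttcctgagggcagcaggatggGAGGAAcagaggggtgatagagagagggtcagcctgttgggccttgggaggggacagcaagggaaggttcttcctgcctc
C1qc promoter: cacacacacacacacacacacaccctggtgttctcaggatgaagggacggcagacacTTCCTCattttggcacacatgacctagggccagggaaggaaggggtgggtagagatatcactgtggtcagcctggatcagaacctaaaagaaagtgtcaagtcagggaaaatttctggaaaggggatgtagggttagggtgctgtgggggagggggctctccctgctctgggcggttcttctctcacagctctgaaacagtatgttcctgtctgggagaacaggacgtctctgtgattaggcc
Each holds 1 match, on the forward strand 30 bases before the start in C1qb (position -30) and on the reverse strand at position -193 in C1qc. Promoters were listed for 24 of the 34 members, and 15 of their 28 promoters (53.6%) held the motif on either strand, compared with 28.3% of the 32851 promoters of all genes. A match describes the letters and does not show binding. Control pool 1 was highest for 20 of the 31 tested members, and any part of the motif in that was not tested.

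Adaptor proteins carry the signals of many of these receptors. Fcer1g, the common γ chain of Fc receptors (ENSMUSG00000058715, chromosome 1, 171229572 to 171234365), had 6.58, 10.4, 8.2 and 7.86 CPM in βNrf2KO pools 1, 2, 3 and 4, against 11.7, 7.26 and 6.65 CPM in control pools 1, 2 and 4. The groups mixed, and the log2 fold change was -0.04 ± 0.26 (edgeR, adjusted p = 0.960). Tyrobp, the adaptor of Trem2 also called DAP12, ranged from 1.14 to 2.43 CPM in βNrf2KO pools and from 1.30 to 4.54 CPM in control pools. Its log2 fold change was -0.69 ± 0.44 (edgeR, adjusted p = 0.619) and -0.09 without control pool 1.

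All 4 genes of antigen presentation had log2 fold changes below 0, beside 50.6% of all tested genes, with a median of -0.24, and none passed. Without control pool 1, Cd74, H2-Ab1 and Ctss were above 0 at 0.081, 0.22 and 0.30, and H2-Aa was -0.11. Cd74, the invariant chain of MHC class II (ENSMUSG00000024610, chromosome 18, 60803848 to 60812646), had 14.8, 20.1, 11.5 and 25.8 CPM in βNrf2KO pools 1, 2, 3 and 4, against 26.8, 16.6 and 17.6 CPM in control pools 1, 2 and 4. βNrf2KO pool 4 lay just under control pool 1, the highest, and βNrf2KO pool 3 was lowest. The log2 fold change was -0.17 ± 0.28 (edgeR, adjusted p = 0.840). The class II chains H2-Aa and H2-Ab1 differed by -0.51 ± 0.38 and -0.10 ± 0.32, and Ctss, the protease that trims the invariant chain, by -0.32 ± 0.39. None of these passed (edgeR, adjusted p = 0.644, 0.921 and 0.780). Of 8 further class II genes tested, 7 lay below 0 and 1 above, with a median of -0.20 and none at an unadjusted p under 0.05.

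Lysozyme separates a pair of near-copies. Lyz2, the lysozyme of macrophages and granulocytes (ENSMUSG00000069516, chromosome 10, 117277334 to 117282274), had 104, 233, 60 and 161 counts in βNrf2KO pools 1, 2, 3 and 4, against 227, 189 and 174 counts in control pools 1, 2 and 4. Lyz1, the copy known from Paneth cells of the gut (ENSMUSG00000069515, 117287796 to 117292868), gave 0, 1, 0 and 1 counts over the βNrf2KO pools and 0 counts in each control pool. With 0 counts seen, a level of up to 3 counts remains possible, or 0.0997 to 0.198 CPM over the 7 pools. In CPM, Lyz2 had 5.57, 10.9, 2.81 and 5.92 in βNrf2KO pools and 12.9, 12.5 and 5.78 in control pools, a log2 fold change of -0.71 ± 0.41 (edgeR, adjusted p = 0.589). Control pools 1 and 2 were highest, while control pool 4 lay among the βNrf2KO pools.

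The promoters of these copies are shown because the adjacent genes are so alike and were counted so unequally. Coordinates are chr10:117282223-117282522 for Lyz2 and chr10:117292819-117293118 for Lyz1 (RefSeq, GRCm38.p6, minus strand), and capitals mark the longest run found in both.
Lyz2 promoter: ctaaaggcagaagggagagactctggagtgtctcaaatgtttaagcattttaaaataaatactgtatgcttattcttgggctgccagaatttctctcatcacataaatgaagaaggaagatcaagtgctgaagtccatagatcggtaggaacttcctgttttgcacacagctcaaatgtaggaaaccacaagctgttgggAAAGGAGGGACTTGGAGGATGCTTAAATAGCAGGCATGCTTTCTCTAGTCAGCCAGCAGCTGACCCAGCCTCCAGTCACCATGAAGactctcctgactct
Lyz1 promoter: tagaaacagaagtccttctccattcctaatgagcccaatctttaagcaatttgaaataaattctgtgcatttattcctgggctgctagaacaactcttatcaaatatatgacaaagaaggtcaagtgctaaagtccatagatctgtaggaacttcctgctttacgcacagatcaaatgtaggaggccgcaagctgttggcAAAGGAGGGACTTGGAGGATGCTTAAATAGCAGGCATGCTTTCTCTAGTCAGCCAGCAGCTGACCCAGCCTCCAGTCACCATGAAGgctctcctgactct
The shared run is 86 bases long, and 81.9% of the aligned positions are identical, gaps counted as differences. Neither window holds GAGGAA on either strand. Within the transcripts, 15.4% of the 50-base words of Lyz2 also occur in Lyz1, and reads from such stretches cannot be assigned to 1 gene.

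The lysosomal proteins Cd68 and Laptm5 were among the better counted members. Cd68, the glycoprotein macrosialin (ENSMUSG00000018774, chromosome 11, 69664213 to 69666153), had 8.03, 10.4, 9.75 and 10.4 CPM in βNrf2KO pools 1, 2, 3 and 4, against 15.8, 8.78 and 7.01 CPM in control pools 1, 2 and 4. All βNrf2KO pools lay within the range of the control pools. Its log2 fold change was -0.12 ± 0.27, and that of Laptm5, a lysosomal membrane protein of blood cells, was -0.30 ± 0.31 (edgeR, adjusted p = 0.889 and 0.739).

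Genes of leukocytes in general were read next. Ptprc, the phosphatase CD45 (ENSMUSG00000026395, chromosome 1, 138062861 to 138175708), had 13.5, 20.4, 7.31 and 10.9 CPM in βNrf2KO pools 1, 2, 3 and 4, against 17.3, 21.9 and 13.8 CPM in control pools 1, 2 and 4. Of 4 βNrf2KO pools, 3 lay below every control pool, and βNrf2KO pool 2 lay among the controls (log2 fold change -0.44 ± 0.31, edgeR adjusted p = 0.635). Spi1, which encodes PU.1 (ENSMUSG00000002111, chromosome 2, 91082390 to 91115756), had 3.85, 6.08, 3.75 and 3.27 CPM in βNrf2KO pools and 7.78, 6.67 and 2.46 CPM in control pools, so both extremes were control pools (-0.40 ± 0.38, edgeR adjusted p = 0.718). The surface antigen Cd52, the actin-binding Coro1a and Aif1, a calcium-binding protein of macrophages, differed by -0.31 ± 0.28, -0.53 ± 0.35 and -0.95 ± 0.69. Aif1 rested on 2 to 22 counts per pool, and none of these passed (edgeR, adjusted p = 0.712, 0.625 and 0.644).

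The integrins gave different values. Itgam, integrin αM or CD11b of macrophages and neutrophils (ENSMUSG00000030786, chromosome 7, 128062640 to 128118491), had 15, 57, 30 and 19 counts in βNrf2KO pools 1, 2, 3 and 4, against 22, 9 and 17 counts in control pools 1, 2 and 4. βNrf2KO pool 2 was highest at 2.67 CPM, with 0.803, 1.41 and 0.698 CPM in βNrf2KO pools 1, 3 and 4 and 0.565 to 1.25 CPM in control pools. The log2 fold change of 0.80 ± 0.56 did not pass (edgeR, adjusted p = 0.635), and it was 0.28 without βNrf2KO pool 2. Gm49368 overlaps 68.7% of the exon length of Itgam on the same strand and held 0 to 2 counts per pool, so the level of Itgam is uncertain. Itgax, integrin αX or CD11c, differed by 0.06 ± 0.41 (edgeR, adjusted p = 0.966).

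Markers of lymphocytes and platelets were mostly thinly counted. Cd79a, a signalling chain of the B cell receptor (ENSMUSG00000003379, chromosome 7, 24897381 to 24902197), had 3.75, 3.18, 2.39 and 6.98 CPM in βNrf2KO pools 1, 2, 3 and 4, against 2.90, 3.56 and 4.45 CPM in control pools 1, 2 and 4. βNrf2KO pool 4 was highest, and the log2 fold change of 0.16 ± 0.37 (edgeR, adjusted p = 0.884) was -0.23 without it. The 8 other B cell genes listed summed to 32.1, 36.6, 9.28 and 27.4 CPM in βNrf2KO pools and 25.5 to 33.7 CPM in control pools, with βNrf2KO pool 3 lowest. Cd3e, a chain of the T cell receptor complex, had 6 to 17 counts in βNrf2KO pools and 12 to 18 in control pools, with a log2 fold change of -0.33 ± 0.52 (edgeR, adjusted p = 0.827). The 13 other T cell genes listed summed to 11.1, 10.8, 6.56 and 11.1 CPM in βNrf2KO pools 1, 2, 3 and 4 and 10.96 to 15.6 CPM in control pools. Pf4, a chemokine of platelets and of some macrophages, had 2 to 13 counts in βNrf2KO pools and 10 to 14 in control pools, with a log2 fold change of -0.70 ± 0.65 (edgeR, adjusted p = 0.712). Of 5 platelet genes tested beside it, 4 lay below 0 with a median of -0.84. Itga2b and Gp1bb of the platelet surface, named for the smallest unadjusted p of that list, differed by -0.82 ± 0.26 and -0.84 ± 0.32. Neither passed (edgeR, adjusted p = 0.571 each). Without control pool 2, which held the highest platelet sum, Itga2b was -0.63 ± 0.26 and Gp1bb -0.40 ± 0.28. Groups did not overlap for these 2 of the 5 genes, beside 7% of all tested genes. Platelet genes summed to 8.49 to 15.4 CPM in βNrf2KO pools and 14.5 to 26.3 CPM in control pools, and genes of red cells to 105 to 291 CPM and 139 to 274 CPM in the same order of groups.

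Granulocyte genes outside the 34 set 2 of the βNrf2KO pools apart. Ngp, a protein of neutrophil granules made by bone marrow precursors, had 12, 1728, 20 and 30 counts in βNrf2KO pools 1, 2, 3 and 4, against 10, 19 and 60 counts in control pools 1, 2 and 4. Myeloperoxidase, Mpo, gave 1, 148, 0 and 3 counts over the βNrf2KO pools and 0, 2 and 2 in control pools, and lactoferrin, Ltf, had 3, 261, 1 and 5 in βNrf2KO pools and 2, 11 and 18 in control pools. All 11 neutrophil genes of the list were highest in βNrf2KO pool 2, where they summed to 119 CPM, against 2.98 to 3.53 CPM in the other βNrf2KO pools and 4.83 to 9.31 CPM in control pools. Ngp alone gave 80.9 CPM of that sum, and Camp barely differed, with 7 counts in βNrf2KO pool 2 and 4 to 6 in each other pool. βNrf2KO pool 2 also held the highest levels of Itgam and Fcgr3. For Fcgr3 it had 1.97 CPM, against 0.803, 0.656 and 0.698 CPM in βNrf2KO pools 1, 3 and 4. Control pools 1, 2 and 4 had 1.82, 1.65 and 1.40 CPM of Fcgr3, near βNrf2KO pool 2. The part of neutrophils in the Itgam and Fcgr3 values was not tested.

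Mast cell proteases showed another split of the pools. Mcpt4, a chymase of connective tissue mast cells, had 2, 112, 2 and 148 counts in βNrf2KO pools 1, 2, 3 and 4, against 0, 1 and 4 counts in control pools 1, 2 and 4. The tryptase Tpsb2 gave 1, 68, 2 and 86 counts over the βNrf2KO pools and 0, 11 and 4 in control pools. Carboxypeptidase A3, Cpa3, gave 0, 53, 0 and 129 counts over the βNrf2KO pools and 0, 14 and 4 in control pools. Of the 7 mast cell genes, these 3 and the chymase Cma1 were highest in βNrf2KO pool 2 or 4. Hdc, which makes histamine, and Ms4a2, a chain of the IgE receptor, were highest in control pool 2, and Fcer1a was at 0 counts in all 7 pools. Ms4a2 had 0 counts in βNrf2KO pool 2. The 7 genes summed to 18.6 and 18.9 CPM in βNrf2KO pools 2 and 4, and to 2.48 to 8.19 CPM in the other 5 pools. These genes were named after their values were seen, and since they are high in 1 or 2 pools of a group of 4, most were not tested or gave wide errors. Cpa3 had a log2 fold change of 2.5 ± 1.76 (edgeR, adjusted p = 0.644).

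**Figure D4:**
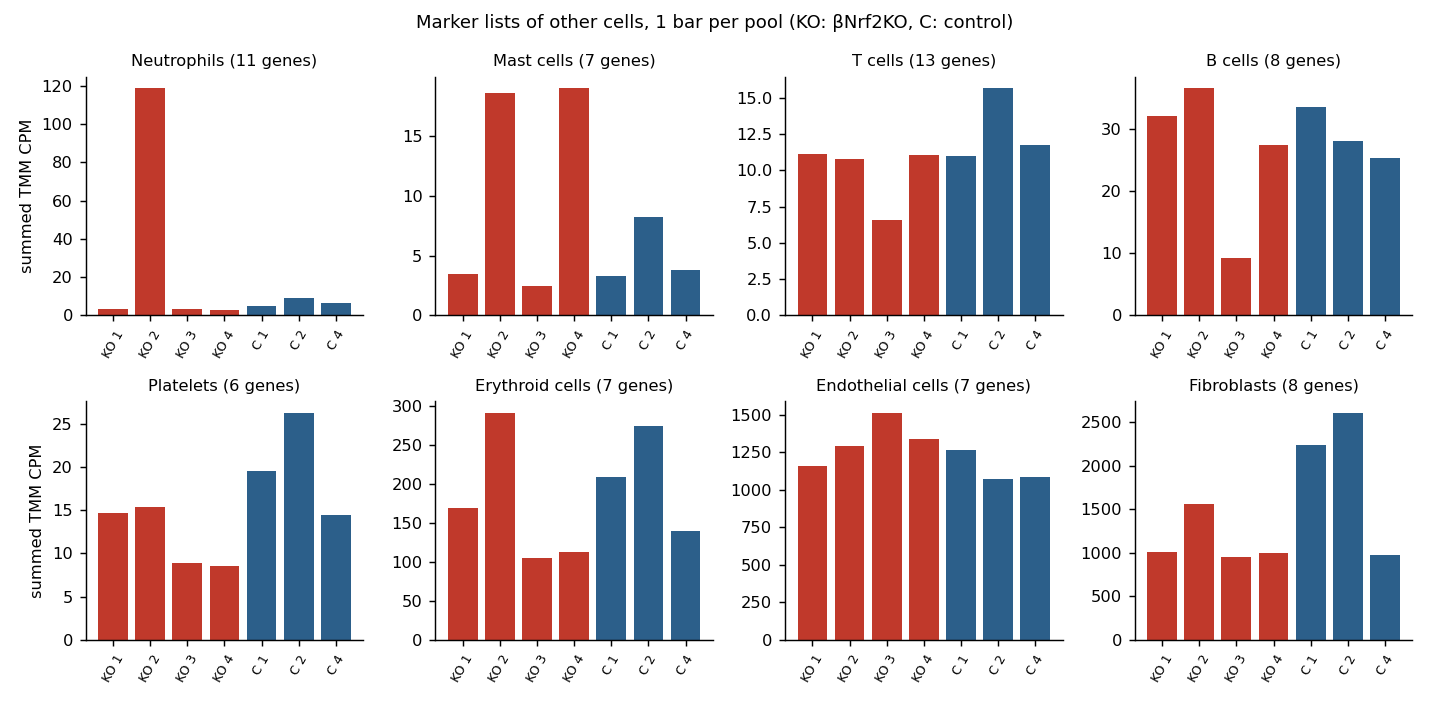
Summed TMM CPM (y axis, from 0, a scale of its own in each panel) of 8 marker lists in each pool, βNrf2KO in red and control in blue. Neutrophil genes reach 119 CPM in βNrf2KO pool 2 alone, and mast cell genes reach 18.6 and 18.9 CPM in βNrf2KO pools 2 and 4.

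The wider set of myeloid genes was read in 8 lists covering growth factors, transcription factors, pattern and scavenger receptors, Fc receptors and their kinases, class II genes, the phagocyte oxidase and lysosome, adhesion and motility, and complement beyond C1q. Of 99 genes 88 were tested, and 68 lay below 0 and 20 above with a median of -0.28. Without control pool 1, 50 of 88 lay below 0 and the median was -0.07. None passed (edgeR, 0 called), 6 below 0 and 1 above 0 had an unadjusted p under 0.05, where 5.23% and 3.23% of all tested genes lay, and 3 below and 1 above had groups that did not overlap, beside 7% of all tested genes.

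By list, the phagocyte oxidase and lysosome had a median of -0.06, class II genes -0.20, growth factors and their receptors -0.24, pattern and scavenger receptors -0.29, transcription factors -0.32, Fc receptors and their kinases -0.35, complement -0.39, and adhesion and motility -0.46. All 9 complement genes lay below 0, beside 50.6% of all tested genes. They included Serping1, the inhibitor of the C1 complex (-0.39 ± 0.17), and the C1s protease C1s1 (-0.82 ± 0.36). Gas6, a ligand that bridges dying cells to Mertk and Axl, had 9.85, 12.7, 9.09 and 11.1 CPM in βNrf2KO pools 1, 2, 3 and 4, against 14.5, 21.1 and 12.9 CPM in control pools 1, 2 and 4, with no overlap and a log2 fold change of -0.59 ± 0.22. Axl itself differed by -0.55 ± 0.25, the myeloid transcription factor Cebpa by -0.72 ± 0.31 and the tetraspanin Cd53 by -0.76 ± 0.34. Ctsb, a lysosomal protease of many cell types, was the 1 gene above 0 at an unadjusted p under 0.05, with 176, 219, 279 and 216 CPM in βNrf2KO pools and 171, 99.2 and 166 CPM in control pools (0.61 ± 0.22). The T cell antigen Cd2 differed by -1.58 ± 0.60 on 2 to 25 counts per pool. Each of these genes had an adjusted p of 0.571 by edgeR with all pools. Without control pool 2 each of these estimates was smaller in size. Serping1 was then -0.23 ± 0.15, C1s1 -0.24 ± 0.30, Gas6 -0.36 ± 0.21 and Axl -0.32 ± 0.26. Cebpa was -0.50, Cd53 -0.50, Cd2 -1.08 and Ctsb 0.40 in that fit. Gas6, Axl and complement genes are also made by fibroblasts, whose 8 markers all lay below 0 with a median of -0.81. Of the 8 markers, 5 had an unadjusted p under 0.05 by edgeR, and 0 passed. Of all tested genes, 5.23% lay below 0 with such a p. The markers summed highest in control pools 2 and 1. The part of fibroblasts in the Gas6, Axl and complement values was not tested.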

How the data were processed

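Counts per gene were deposited by the authors for each of 7 pools. The submitters' processing notes list STAR 2.5.2b, Subread 1.5.2 with featureCounts, Trimmomatic 0.36 and bcl2fastq 2.20. How strand and reads matching several genes were handled is not given in the sources used here. A later build is named there, yet start and end equalled those of GENCODE M21 (GRCm38) for 91.4% of the genes in both, so coordinates are GRCm38. The Cre entry was left out of totals and tests.

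Genes were fitted with edgeR 4.0.16 (R 4.3.3, TMM, filterByExpr by group, robust quasi-likelihood, two-sided, 19893 genes), after the script was tested on simulated data. The threshold was an adjusted p of 0.05. Errors beside log2 fold changes are SE, taken as the size of the fold change over the square root of the F statistic. Those beside means are SD. Alternatives were RLE, no filter, no mitochondrial genes, DESeq2 1.42.0, the pool number as a block, and leaving out each pool.

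Pool numbers come from sample titles. After removal of group means, pools 1, 2 and 4 correlated with their namesakes at r = 0.376, 0.229 and 0.323 across genes. βNrf2KO pool 3 correlated with control pool 4 at r = 0.241, above the value of the pools numbered 2. The other pairs of unlike number ran from -0.353 to -0.0437. What the numbers stand for is not given in the labels. They were treated as pairs in the block fit, in which βNrf2KO pool 3 has no partner.

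The members and lists were chosen with earlier results of these data known. All members are accounted for. Values in every pool are given for members whose groups do not overlap (0 members), the 3 members with the smallest unadjusted p in each direction, the 4 highest per length, Csf1r, Adgre1, Ptprc, Spi1 and members not tested, and from other lists at most 2 genes with the smallest p. C1qb, Fcgr3 and the lymphatic, neutrophil and mast cell genes named fall outside this rule. The limit of up to 3 counts at 0 counts seen covers counting error only, while SE and SD include the spread between pools.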

Additional observations from a re-analysis of the deposited data

Results flagged for a closer look

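Within the 4 βNrf2KO pools, a value was listed where its gap to the nearest other pool, over the range of the 4, exceeded the critical value of Dixon's test. Of 93 genes and list sums checked, 13 were listed. Chance lists about 1 in 20 independent values, a rate that does not apply to this count, since 9 of the 13 are the neutrophil list and its own genes. Of these, 11 were highest in βNrf2KO pool 2. They included the neutrophil list at 119 CPM and its genes Ngp (80.9 CPM), Ltf (12.2 CPM), S100a8 (9.45 CPM), Mpo (6.93 CPM), Mmp8 (3.04 CPM), Retnlg (2.81 CPM), Ly6g (0.468 CPM) and Elane (0.281 CPM). The IgG receptor Fcgr3 (1.97 CPM) and the fibroblast and pericyte list (1560 CPM) were highest in the same pool. Ctss was lowest in βNrf2KO pool 1 (3.05 CPM, against 6.25 to 6.83 CPM in the other 3), and the T cell list was lowest in βNrf2KO pool 3 (6.56 CPM, against 10.8 to 11.1 CPM).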

How the results depend on the processing

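No member was called under any of the 12 alternatives. Signs were compared for 43 genes, the 31 tested members, 11 others with a fold change in the text, and Nfe2l2. RLE, leaving out mitochondrial genes, no filter and DESeq2 turned none of the 43. Among all genes the block called 14 and DESeq2 1, and leaving out 1 pool called 0 to 1, the 1 without control pool 4. Members at an unadjusted p under 0.05 numbered 2 without a filter and 0 to 7 when 1 pool was left out, 0 without control pool 1, βNrf2KO pool 3 or βNrf2KO pool 4, 5 without βNrf2KO pool 2 and 7 without control pool 4. Members below 0 numbered 15 to 29, and the median of members ran from -0.53 to 0.02, the last without control pool 1. The ratio of summed member levels ran from 0.765 to 1.02, and was 0.885 with mitochondrial genes left out of the totals. Leaving out 1 pool turned 15 of the 43, and 12 turned without control pool 1. Trem2 was not tested without βNrf2KO pool 1 or 2, nor Cpa3 without βNrf2KO pool 2 or 4. Ranges over pools left out were -0.24 to 0.30 for C1qa, -0.75 to 0.079 for C1qb, -0.31 to 0.21 for Cx3cr1, -1.16 to 0.85 for Trem2 (5 of 7 pools), -0.48 to 0.20 for Cd14, -0.67 to 0.90 for Mrc1, -0.20 to 0.25 for Fcer1g, -0.39 to 0.081 for Cd74, -0.26 to 0.22 for H2-Ab1, -0.57 to 0.30 for Ctss, -0.35 to 0.30 for Cd68, -0.55 to 0.024 for Laptm5, -0.23 to 0.31 for Itgax, -0.23 to 0.35 for Cd79a and -0.10 to 0.45 for Nfe2l2 (0.081 with all pools). With the replicate block, in which pairing rests on numbers 1, 2 and 4, Trem2 was 0.064, Mrc1 0.23, Cd74 0.0025, H2-Ab1 0.14 and Itgax -0.039, the median of members was -0.22, and none of the other 38 turned. The cause was not tested. Depth limits Aif1, Pf4, Cd3e, Trem2, Cd163, Folr2 and Lyz1 most.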
